A study of Saccharomyces cerevisiae with 41 samples.

Results

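Subtelomeric open reading frames (ORFs) of budding yeast were followed here, meaning ORFs within 20 kb of the end of a nuclear chromosome. An ORF was taken when its last base stood at or below position 20000, or its first base lay within 20000 bases of the highest annotated position of its chromosome. That position falls short of the end of the R64 sequence by 222 to 6922 bases, so distances on right arms are too short by this much. YAR071W, YHR215W, YHR216W, YFR053C and YGL256W were left out. This gave 294 ORFs at 32 chromosome ends, of 11587 features and 6542 ORFs in all, and 6243 further ORFs lay farther from the ends. The rule uses positions and names only, though it was chosen with earlier results of these data known.

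Cells of Saccharomyces cerevisiae, given in the labels as vegetative BY4741, grew at 25 °C before a shift to 37 °C lasting 90 min. The strains were csl4-ph, enp1-1, srm1-ts, dis3-1, rrp6 deletion and a control, and every group, the control included, had the same shift. CSL4 encodes a cap subunit of the RNA exosome, DIS3 its catalytic subunit and RRP6 its nuclear exonuclease, ENP1 encodes a factor for making the small ribosomal subunit, and SRM1 the exchange factor of the Ran GTPase. Oligo d(T)-selected RNA came from csl4-ph (n = 3), enp1-1 (n = 2), srm1-ts (n = 2) and control (n = 3) libraries, and ribo-depleted RNA from csl4-ph (n = 3), enp1-1, srm1-ts, dis3-1, rrp6 deletion and control (n = 2 each) libraries. A table of 3′ tags held csl4-ph, enp1-1 and control cells, each with a vector for Pab1GFP (the poly(A)-binding protein joined to GFP) or an empty vector (n = 3 in each of the 6 groups).

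Chromosome ends in yeast carry telomere repeats, X elements and, at many ends, long repeated Y′ elements that hold copies of a helicase gene. Sir proteins spread inward from the telomere and silence genes near it, and the silent mating cassettes lie in such regions too. Many gene families sit near the ends in almost identical copies, among them the COS, PAU, THI5, MAL, HXT and AAD genes, most of them used only in particular nutrients or stresses. The nuclear exosome trims and degrades noncoding, antisense and read-through RNA, which is common in these regions. Whether RNA from them changes in strains mutated in exosome subunits or in the other factors is the question the comparisons address.

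Estimated counts per library summed to between 15589664 and 33251613 in oligo d(T) RNA, between 12795030 and 32142531 in ribo-depleted RNA and between 1458391 and 3027727 in 3′ tags. A count of 3, taken as the limit that a count of 0 allows, equals 0.0847 to 0.264 CPM (counts divided by the library's size) in the first table, 0.0866 to 0.313 CPM in the second and 1.01 to 1.94 CPM in the third. The labels do not say that replicates were separate cultures, so the p-values measure the spread between these samples, which may be technical. RRP6 had 39.9 and 38.1 CPM in rrp6 deletion libraries, against 189.7 and 179.7 CPM in control libraries, so it was lower and not at 0. CSL4 averaged 78.2 CPM in csl4-ph and 79.3 CPM in control cells in oligo d(T) RNA, with overlapping libraries. The other altered genes were not lower in their own strains: ENP1 averaged 129 CPM in enp1-1 and 88.2 CPM in control cells, SRM1 averaged 69.0 CPM in srm1-ts and 34.7 CPM in control cells, and DIS3 averaged 276 CPM in dis3-1 and 265 CPM in control cells in ribo-depleted RNA.

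Markers of strain background differed between the strains. The label names BY4741, a MATa strain with LYS2 and without working MET17 and URA3, and the markers of enp1-1, srm1-ts and dis3-1 matched it. Those of csl4-ph, rrp6 deletion and control in the first 2 tables did not all match. In rrp6 deletion LYS2 (456 CPM) and MET17 (0.723 CPM) matched, while URA3 (9.25 CPM) and the a-cell markers (69.8 CPM) did not. The control of that table had 0.541 CPM of LYS2 and 539 CPM of MET17. A summed level over 4 alpha-cell markers was 698 to 705 CPM in csl4-ph, 121 CPM in enp1-1 and 77.8 CPM in srm1-ts cells, against 3648 to 3744 CPM in control cells in oligo d(T) RNA, while 6 a-cell markers averaged 89.3, 1415 and 474 CPM in the same strains and 49.8 CPM in control cells. In ribo-depleted RNA the alpha-cell markers averaged 493 CPM in csl4-ph and 68.8 CPM in rrp6 deletion cells, against 1173 to 1193 CPM in control cells. LYS2 averaged 457 CPM in enp1-1 cells in oligo d(T) RNA and was listed at 0 in csl4-ph and control cells, while MET17 averaged 72.7 CPM in csl4-ph, 0.0759 CPM in enp1-1 and 0 in srm1-ts, against 326 CPM in control cells. In 3′ tags MET17 averaged only 0.205 CPM in control cells with the empty vector, where LYS2 and URA3 were at 0. Every comparison with control therefore sets a mutation and a strain background side by side, and these cannot be told apart here. In bulk RNA, fewer cells with a transcript and less of it per cell cannot be told apart either.

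Near-identical copies decide what can be read from these ORFs, and the sequences show why. Of the 294 ORFs, 131 (44.6%) had at least 80% of their windows of 50 bases found nowhere else in the R64 genome, against 98.2% of ORFs farther from the ends, and 49 had no unique window. The first 60 bases of the Y′ helicase genes YRF1-3 (chrVII:1084864-1084923, plus strand), YRF1-6 (chrXIV:6039-6098, minus strand) and YRF1-7 (chrXVI:5948-6007, minus strand), read from the R64 genome, are the same, and their spans of 5728 bases differ from each other at 0 to 2 positions.
YRF1-3: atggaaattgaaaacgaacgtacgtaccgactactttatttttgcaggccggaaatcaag
YRF1-6: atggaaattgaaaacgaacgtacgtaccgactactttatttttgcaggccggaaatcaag
YRF1-7: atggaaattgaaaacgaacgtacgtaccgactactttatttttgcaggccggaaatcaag

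The 4 THI5 family genes, which make the pyrimidine precursor of vitamin B1, can be told apart at some positions. Bases 409 to 468 of each gene (R64: THI5 chrVI:13337-13396 plus, THI11 chrX:729129-729188 minus, THI12 chrXIV:15240-15299 plus, THI13 chrIV:16612-16671 plus) are shown as the window with the most differences, and capitals mark the 6 positions at which the 4 genes are not all the same.
THI5: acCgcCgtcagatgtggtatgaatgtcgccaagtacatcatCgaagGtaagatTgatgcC
THI11: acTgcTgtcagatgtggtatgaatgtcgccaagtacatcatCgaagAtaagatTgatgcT
THI12: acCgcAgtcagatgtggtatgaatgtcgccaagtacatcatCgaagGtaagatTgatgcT
THI13: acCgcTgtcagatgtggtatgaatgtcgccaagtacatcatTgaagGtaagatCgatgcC

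Over their 1023 bases the THI5 family genes are 97.75% to 99.32% identical. The MAL12 and MAL32 maltases are 99.54% identical, the HXT15 and HXT16 hexose transporters 99.88%, and the SNZ2 and SNZ3 vitamin B6 genes 99.33%. How reads that match several copies were shared out is not given in the sources used here, so values of a single copy are uncertain, and families are given below as sums over their copies. Further, 156 of the 294 ORFs overlap another feature, and the kit for the first 2 tables keeps the strand while the strand setting of the counting is not given.

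Subtelomeric ORFs made up a larger share of ORF counts in every mutant than in control cells. With TAR1 left out, they took 1.78% to 1.86% of ORF counts in csl4-ph, 2.18% to 2.21% in enp1-1 and 1.38% in srm1-ts, against 0.668% to 0.684% in control libraries in oligo d(T) RNA. After ribo-depletion the share averaged 2.19% in csl4-ph, 2.09% in enp1-1, 1.51% in srm1-ts, 2.16% in dis3-1 and 1.43% to 1.45% in rrp6 deletion libraries, against 0.816% to 0.821% in control libraries. No mutant library overlapped the control libraries in this share. The summed CPM, which are scaled over all features, differed less. They were 1.36 times control in csl4-ph, 1.67 times in enp1-1 and 1.61 times in srm1-ts in oligo d(T) RNA, and without the ORFs in Y′ regions 0.917, 0.738 and 1.59 times. After ribo-depletion they were 1.52 times control in csl4-ph, 1.65 in enp1-1, 1.19 in srm1-ts, 1.60 in dis3-1 and 1.37 in rrp6 deletion. Without the Y′ regions they were 0.944, 0.833, 1.31, 0.752 and 0.924 times control in the same order. Much of the srm1-ts sum outside Y′ regions came from a single gene, DLD3. It averaged 3672 of 10349 CPM in srm1-ts and 233 of 6513 CPM in control cells in oligo d(T) RNA. After ribo-depletion these values were 2879 of 9236 CPM and 427 of 7058 CPM. Per kilobase, the median level of the 294 ORFs was 11.4 CPM in csl4-ph, 6.54 CPM in enp1-1 and 7.13 CPM in srm1-ts, against 3.77 CPM in control cells in oligo d(T) RNA, while the median of the ORFs farther from the ends was 33.6, 36.1 and 38.2 CPM per kilobase in those mutants and 40.5 in control cells. Subtelomeric ORFs thus stayed at a lower median level than other ORFs in all 4 strains.

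In oligo d(T) RNA, 251 of the 294 ORFs passed the filter on low counts, 14 of them through the srm1-ts libraries alone and 4 and 2 through those of csl4-ph and enp1-1. In csl4-ph cells 145 were higher than in control and 45 lower (57.8% and 17.9%; background over all 10464 features 38.2% higher and 39.6% lower, over ORFs farther from the ends 25.4% and 56.8%; edgeR quasi-likelihood test, Benjamini-Hochberg adjusted p under 0.05). In enp1-1 cells 103 were higher and 68 lower (41% and 27.1%; background 37.8% and 38.6%, farther ORFs 28.6% and 53.6%), and in srm1-ts cells 118 were higher and 66 lower (47.0% and 26.3%; background 39.3% and 37.7%, farther ORFs 38.2% and 46.3%). The median log2 fold change over the tested subtelomeric ORFs was 1.22 in csl4-ph, 0.53 in enp1-1 and 0.77 in srm1-ts, against -0.42, -0.38 and -0.14 over the ORFs farther from the ends. With genes of a group at 0 counts set to their bound, the first 3 medians were 1.19, 0.49 and 0.75. The 3 comparisons share their control libraries. Of the 14 ORFs that passed through srm1-ts alone, 10 were called higher in srm1-ts. Without these 14 and the 3 that passed through control alone, 108 were higher and 66 lower of 234. The srm1-ts count and median over all 251 are therefore a description. Of the 4 and 2 that passed through csl4-ph and enp1-1 alone, 2 and 1 were called higher in those strains.

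In ribo-depleted RNA, 263 passed the filter, 9 of them through the rrp6 deletion libraries alone. Through those of srm1-ts, csl4-ph and enp1-1 alone 5, 3 and 1 passed. Of the 9, 7 were called higher in rrp6 deletion cells. Without these 9 and the 2 that passed through control alone, 112 were higher and 65 lower of 252 in rrp6 deletion cells. Of the 5 through srm1-ts alone, 3 were called higher in srm1-ts cells. Without these 5 and the same 2, 105 were higher and 76 lower of 256 in srm1-ts cells. In csl4-ph cells 133 were higher and 56 lower (50.6% and 21.3%; background 35.4% and 41.1%, farther ORFs 23.7% and 59.3%). In enp1-1 cells 104 were higher and 75 lower (39.5% and 28.5%; background 34.8% and 37.0%, farther ORFs 28.4% and 50.6%), and in srm1-ts cells 108 and 77 (41.1% and 29.3%; background 39.4% and 37.0%, farther ORFs 35.7% and 47.2%). In dis3-1 cells 97 were higher and 67 lower (36.9% and 25.5%; background 30.0% and 38.8%, farther ORFs 18.0% and 57.3%), and in rrp6 deletion cells 119 and 66 (45.2% and 25.1%; background 30.5% and 35.6%, farther ORFs 22.2% and 50.6%). Median log2 fold changes were 1.01, 0.40, 0.44, 0.19 and 0.47 in that order of strains, against -0.48, -0.26, -0.16, -0.40 and -0.27 over the ORFs farther from the ends. With genes of a group at 0 set to their bound they were 0.84, 0.26, 0.30, 0.10 and 0.39. When the scaling used ORFs alone, the calls in csl4-ph became 154 higher and 32 lower and those in dis3-1 became 118 higher and 44 lower, and the median of all features moved by 0.43 in csl4-ph and by 0.33 in dis3-1 on the log2 scale. The higher shares in enp1-1 and srm1-ts lay close to the background over all features.

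The share of higher calls was not spread evenly over the 294 ORFs. Of the 131 ORFs with at least 80% unique windows, 49 were higher and 37 lower of 112 tested in csl4-ph in oligo d(T) RNA (43.8% and 33%, against 38.2% and 39.6% of all features), with a median log2 fold change of 0.36. The counts were 32 and 49 in enp1-1 (28.6% and 43.8%, against 37.8% and 38.6% of all features) and 47 and 44 in srm1-ts (42% and 39.3%, against 39.3% and 37.7%), so these shares lay near or below the background on the higher side. In ribo-depleted RNA, with 120 tested, they were 40 and 46 in csl4-ph, 34 and 52 in enp1-1 and 43 and 44 in srm1-ts. They were 28 and 51 in dis3-1 and 36 and 48 in rrp6 deletion cells. The rrp6 deletion counts are 30% and 40%, against 30.5% and 35.6% of all features. The higher shares over all features were 35.4% in csl4-ph, 34.8% in enp1-1, 39.4% in srm1-ts and 30.0% in dis3-1. Of the 120, 6 passed the filter through the rrp6 deletion libraries alone, and 5 of these were higher in rrp6 deletion cells. Another 2 of the 120 passed through srm1-ts alone, and both were higher in srm1-ts. Of the 112 in oligo d(T) RNA, 4 passed through srm1-ts alone, and 3 of these were higher in srm1-ts. Without these 4 and the 1 that passed through control alone, 44 were higher and 44 lower of 107 in srm1-ts. Among the ORFs with fewer unique windows the counts leaned the other way: 96 higher and 8 lower of 139 in csl4-ph, 71 and 19 in enp1-1 and 71 and 22 in srm1-ts in oligo d(T) RNA.

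**Figure D1:**
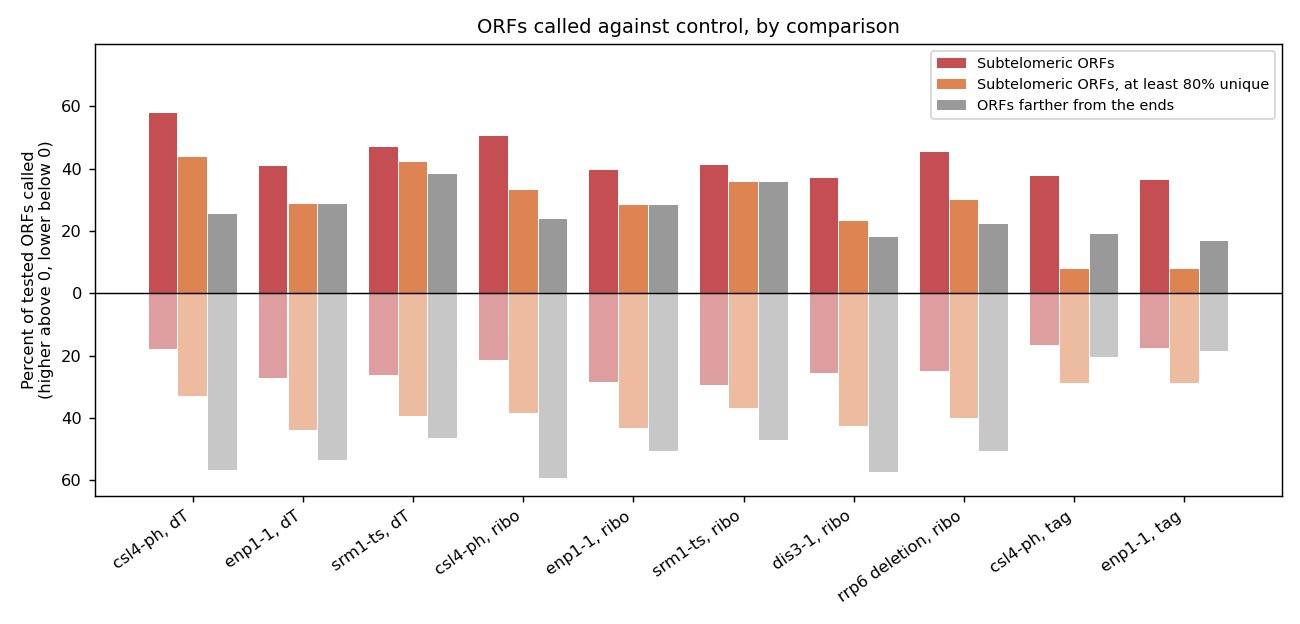
Percent of tested ORFs called higher (above 0) or lower (below 0) than control at an adjusted p under 0.05 in 10 comparisons, for all subtelomeric ORFs, those with at least 80% unique windows, and ORFs farther from the ends. For csl4-ph in oligo d(T) RNA 57.8% of subtelomeric ORFs were higher, against 25.4% of ORFs farther from the ends, and the unique ORFs lie between the 2.

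RNA from Y′ elements was higher in most mutants. Annotated telomere regions with Y′ elements were found at 17 ends and held 62 of the ORFs, of which 4 (YBL109W, YDR543C, YDR544C and YNL338W) had at least 80% unique windows. Their summed level was 4893 to 5183 CPM in csl4-ph, 8730 to 8803 CPM in enp1-1 and 2649 to 2793 CPM in srm1-ts libraries, against 1463 to 1692 CPM in control libraries in oligo d(T) RNA. The sums did not overlap between any mutant and control, and the ratios of the means were 3.15, 5.47 and 1.70. In ribo-depleted RNA the sum averaged 7677 ± 177 CPM in csl4-ph (SD, n = 3), 9659 ± 319 in enp1-1, 1975 ± 38.9 in srm1-ts, 9813 ± 63.5 in dis3-1 and 6378 ± 2.49 in rrp6 deletion, against 2370 ± 27.4 CPM in control libraries (SD, n = 2 each). There the ratio was 3.24 in csl4-ph, 4.08 in enp1-1, 4.14 in dis3-1 and 2.69 in rrp6 deletion, and srm1-ts lay below control with a ratio of 0.833. A sum over the listed copies does not depend on how reads are split among them. It can still depend on reads shared with overlapping features or with copies not listed, which was not tested.

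Counted one by one in oligo d(T) RNA, 36 of the 50 tested Y′ ORFs were higher in csl4-ph and the other 14 did not pass the test, and 41 of 50 were higher in enp1-1. In srm1-ts 21 were higher and 4 lower. In ribo-depleted RNA 40 were higher and 1 lower of 51 in csl4-ph, 41 and 1 in enp1-1, 38 and 1 in dis3-1, 43 and 2 in rrp6 deletion, and 18 and 13 in srm1-ts cells. The median log2 fold change of Y′ ORFs was 2.06 in csl4-ph, 2.74 in enp1-1 and 0.89 in srm1-ts in oligo d(T) RNA. Outside the Y′ regions, 109 of 201 tested ORFs were higher and 45 lower in csl4-ph (median 0.78), 62 and 68 in enp1-1 (0.13), and 97 and 62 in srm1-ts (0.71). In ribo-depleted RNA the ORFs outside Y′ regions had medians of 0.51 in csl4-ph, 0.46 in srm1-ts and 0.01 in rrp6 deletion cells. The higher shares over all features were 38.2% in csl4-ph, 37.8% in enp1-1 and 39.3% in srm1-ts in oligo d(T) RNA. After ribo-depletion they were 35.4% in csl4-ph, 34.8% in enp1-1, 39.4% in srm1-ts, 30.0% in dis3-1 and 30.5% in rrp6 deletion. The higher count outside Y′ regions in enp1-1 lay below this background. That of Y′ ORFs in srm1-ts after ribo-depletion lay near it. Copies in one Y′ region, and copies across regions, share sequence and are not independent of each other. ORFs that passed the filter on low counts through a single strain alone were kept in these counts.

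Of the Y′ genes, YRF1-4 (chrXII:1067087-1071235, plus strand), one of the helicase copies, had 899, 735 and 749.7 CPM in csl4-ph, 1190.5 and 1146 CPM in enp1-1 and 417 and 403 CPM in srm1-ts libraries, against 206, 239 and 212 CPM in control libraries in oligo d(T) RNA. Its log2 fold changes of 1.86 ± 0.09 (SE), 2.42 ± 0.09 and 0.91 ± 0.09 had edgeR adjusted p-values of 1.81e-07, 5.68e-08 and 2.88e-05. Of the 6 listed YRF1 genes, 4 were higher in csl4-ph and 6 in enp1-1 in oligo d(T) RNA, while in srm1-ts 1 was higher and 3 lower. In ribo-depleted RNA all 6 were higher in csl4-ph, enp1-1 and dis3-1 and 5 in rrp6 deletion cells, and 5 were lower in srm1-ts. Over all features 37.0% were lower in srm1-ts after ribo-depletion, and the higher shares are those given for the Y′ ORFs above. With at most 2.00% unique windows in each of these copies, which copy gave the reads is not known.

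YHL050C (chrVIII:445-3311, minus strand), a Y′ ORF of unknown function with 20.01% unique windows, was high in srm1-ts as well. It had 98.8, 81.0 and 91.7 CPM in csl4-ph, 274 and 270.1 CPM in enp1-1 and 291 and 271 CPM in srm1-ts libraries, against 16.6, 15.4 and 18.2 CPM in control libraries in oligo d(T) RNA, and was chosen for mention after its values were seen. The 3 mutants all lay above control.

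In 3′ tags from cells with the empty vector, the Y′ sum was 3877 ± 75.9 CPM in csl4-ph and 5481 ± 552 CPM in enp1-1, against 1137 ± 50.8 CPM in control cells (SD, n = 3 each), ratios of 3.41 and 4.82. Of the 30 Y′ ORFs tested there, 23 were higher in csl4-ph and 24 in enp1-1, and the others did not pass the test. Over all 85 tested subtelomeric ORFs, 32 were higher and 14 lower in csl4-ph (37.6% and 16.5%; background 32.2% and 15.4%, farther ORFs 19.1% and 20.5%), and 31 and 15 in enp1-1 (36.5% and 17.6%; background 25.0% and 13.9%, farther ORFs 16.9% and 18.6%). Outside the Y′ regions 9 of 55 were higher and 14 lower in csl4-ph, and 7 and 15 in enp1-1. The lower share in csl4-ph became 9.68% without control + empty vector replicate 3, 6.67% without csl4-ph + empty vector replicate 1 and 6.45% without csl4-ph + empty vector replicate 3, and with scaling on ORFs the calls were 33 higher and 6 lower.

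**Figure D2:**
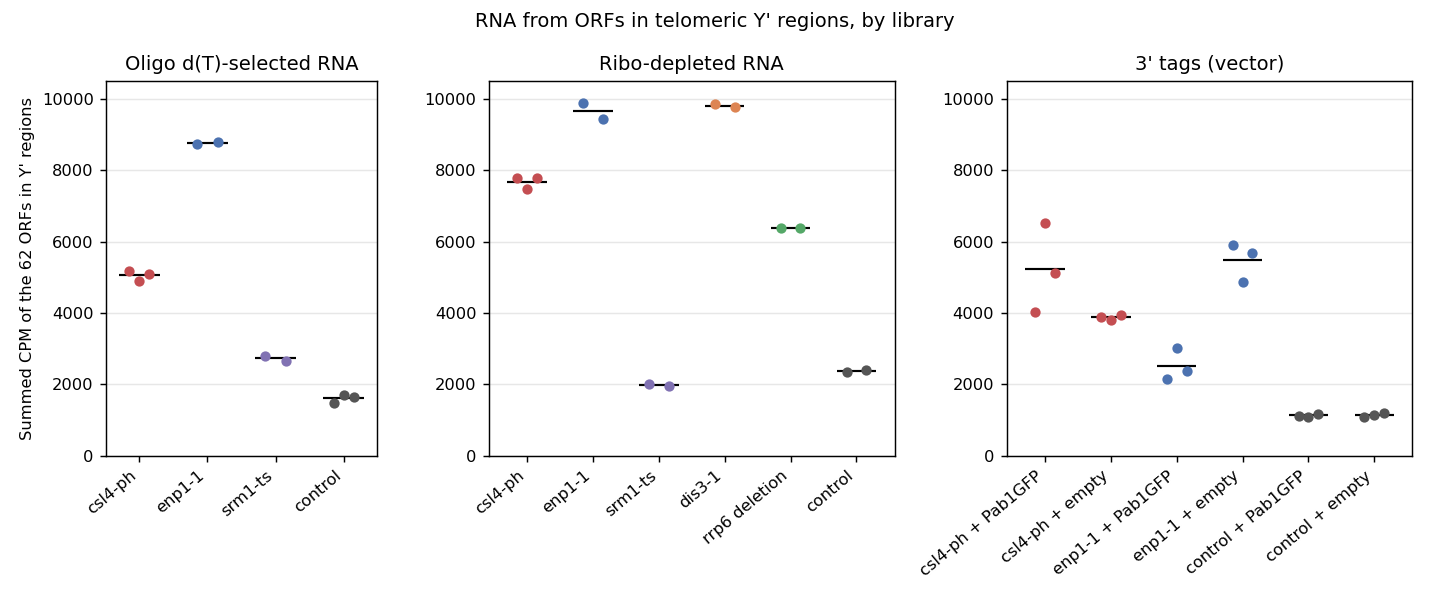
Summed CPM of the 62 ORFs in Y′ regions in each library, in oligo d(T) RNA, ribo-depleted RNA and 3′ tags (by vector); dots are libraries and bars are group means. Mutant libraries lie above control except srm1-ts in ribo-depleted RNA, at 1947 to 2002 CPM against 2350 to 2389 CPM in control.

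Medians of the log2 fold change were higher next to the end than 15 to 20 kb from it. In csl4-ph in oligo d(T) RNA, 52 ORFs were higher and 4 lower of 75 tested within 5 kb of an end, 44 and 7 of 69 between 5 and 10 kb, 30 and 18 of 65 between 10 and 15 kb, and 19 and 16 of 42 between 15 and 20 kb. The last 2 bins, with 46.2% and 45.2% higher and 27.7% and 38.1% lower, stood closer to the background over all features (38.2% and 39.6%) than the first, with 69.3% and 5.33%. The medians of the log2 fold change in these bins were 1.93, 1.67, 0.43 and 0.19. For enp1-1 the medians were 2.06, 0.53, 0.02 and -0.11, and for srm1-ts 1.53, 1.15, 0.19 and 0.19. In ribo-depleted RNA they were 1.31, 0.46, -0.16 and -0.32 in dis3-1 and 1.80, 1.02, -0.20 and -0.24 in rrp6 deletion cells. In srm1-ts in ribo-depleted RNA, 32 were higher and 24 lower of 78 within 5 kb (41% and 30.8%; background 39.4% and 37.0%), with a median of 0.62. On the right arms of chromosomes XII and XV, with 25 of the ORFs, the stretch between the highest annotated position and the sequence end is longer than a bin. Measured from the end of the R64 sequence, an alternative chosen after seeing the data, 44 ORFs moved to another bin, and the csl4-ph medians in oligo d(T) RNA became 1.88, 1.86, 0.76 and 0.42, with 8 ORFs beyond 20 kb. Those of enp1-1 became 2.16, 0.53, 0.13 and 0.04. ORFs that passed the filter on low counts through a single strain alone were kept in all these bins.

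The bin next to the end holds the Y′ elements and few unique ORFs. Of its 48 ORFs outside Y′ regions, 28 were higher and 4 lower of 38 tested in csl4-ph (median 2.01), 15 and 11 in enp1-1 (0.71) and 23 and 8 in srm1-ts (2.38) in oligo d(T) RNA. After ribo-depletion 24 of 42 were higher and 4 lower in rrp6 deletion cells, with a median of 1.66. Of its 18 ORFs with at least 80% unique windows, 8 were higher and 1 lower of 10 in csl4-ph in oligo d(T) RNA, 4 and 6 in enp1-1, and 4 and 4 in srm1-ts, and in rrp6 deletion cells 8 were higher and 3 lower of 14. Of these 18 ORFs, 10 passed the filter on low counts in the first table and 14 in the second. Some of the 14, among them YCL076W and YFR057W, passed through the rrp6 deletion libraries alone, so the rrp6 deletion counts here are a description. ORFs that passed through srm1-ts alone were not left out either, so the srm1-ts counts and median here are a description too. Over all features 38.2%, 37.8% and 39.3% were higher in csl4-ph, enp1-1 and srm1-ts in oligo d(T) RNA. After ribo-depletion 30.5% were higher in rrp6 deletion cells.

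**Figure D3:**
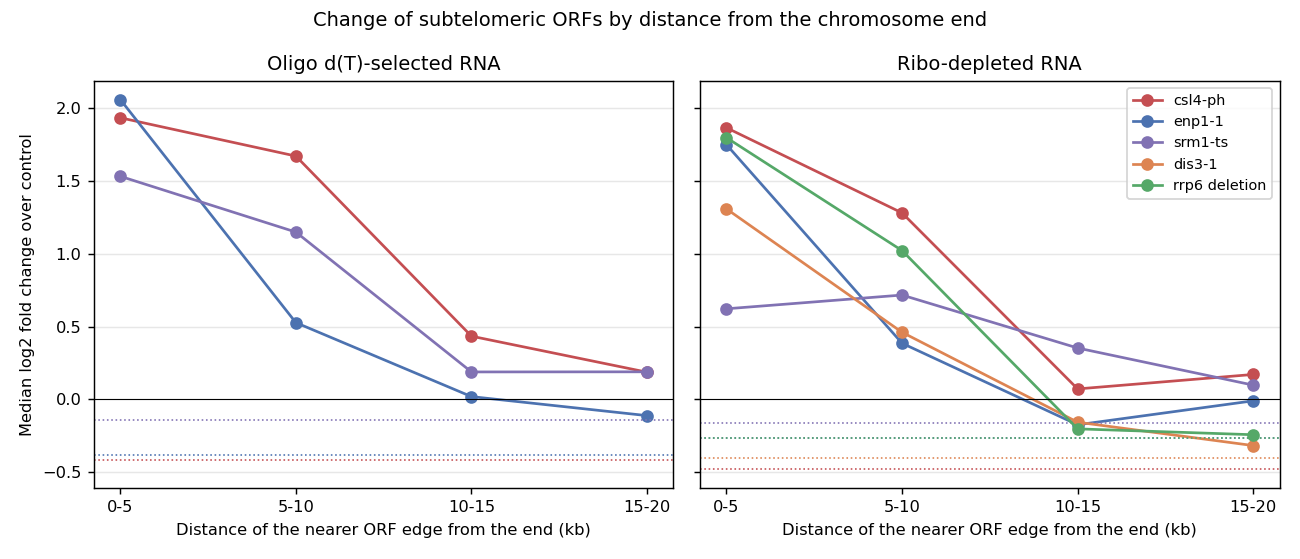
Median log2 fold change over control of tested subtelomeric ORFs in bins of 5 kb from the chromosome end, by strain, in oligo d(T) and ribo-depleted RNA; dotted lines give the median of ORFs farther from the ends. The csl4-ph medians in oligo d(T) RNA run from 1.93 next to the end to 0.19 at 15 to 20 kb, where ORFs farther in stand at -0.42.

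The ORF nearest to each of the 32 ends, 17 of which lay in Y′ regions, was higher in 20 and lower in 2 of 26 tested cases in csl4-ph, 18 and 5 in enp1-1 and 12 and 7 in srm1-ts in oligo d(T) RNA. The background over all features in oligo d(T) RNA is 38.2% higher in csl4-ph, 37.8% in enp1-1 and 39.3% in srm1-ts, and 12 of 26 (46.2%) in srm1-ts lay near it. Of these 12, 2 passed the filter on low counts through the srm1-ts libraries alone, leaving 10 higher and 7 lower of 24. After ribo-depletion, with 30 tested, 28 were higher and 1 lower in rrp6 deletion cells. This count is a description, since 4 of the 28 passed the filter on low counts through the rrp6 deletion libraries alone, leaving 24 higher and 1 lower of 26. The counts were 20 and 4 in csl4-ph, 19 and 5 in enp1-1, 18 and 2 in dis3-1, and 11 and 13 in srm1-ts. Over all features 35.4%, 34.8%, 30.0% and 39.4% were higher in these strains, and 30.5% in rrp6 deletion cells. The 36.7% higher in srm1-ts lay near this background. The unique ORF YCL076W (chrIII:1392-2135), chosen for mention after its values were seen, had 5.61 and 5.42 CPM in the rrp6 deletion libraries and 0 and 0 CPM in control, at least 19.4-fold higher against a limit of 3 counts per library. It passed the filter through the rrp6 deletion libraries alone, so no test is given. It stayed at or below 0.0999 CPM in every other library of that table. YKL225W (chrXI:451-798) had 1.43 and 2.22 CPM in rrp6 deletion libraries and 0 CPM in both control libraries, and YMR326C (chrXIII:923494-923802) had 1.02 and 1.29 CPM, again against 0 CPM. YMR326C was called higher in all 5 mutants of that table, so its rise was not particular to rrp6 deletion.

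The 20 kb edge is a choice of distance. Just inside it lay YPR195C (farthest base 19736 bases from the end), MMP1 (19707), FDC1 (19617) and PCA1 (19555), and just outside TOG1 (20229), MAL13 (20298), YHR214W (20396) and PRE4 (20450). In oligo d(T) RNA the log2 fold change in csl4-ph was 1.00 for MMP1, a methionine permease gene, and -1.05 for FDC1, a decarboxylase gene, on the inner side, and 0.37 for TOG1, 0.79 for the maltose activator gene MAL13 and -0.65 for the proteasome gene PRE4 beyond it. Both signs thus occurred on either side.

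Among gene families, the COS genes, whose products sort membrane proteins into endosomes for breakdown, differed in direction between strains. The sum over 11 COS genes was 546 ± 8.30 CPM in csl4-ph (SD, n = 3), 196 ± 5.58 CPM in enp1-1 and 286 ± 11.8 CPM in srm1-ts (n = 2 each), against 701 ± 16.1 CPM in control (n = 3) in oligo d(T) RNA. After ribo-depletion it averaged 536 CPM in csl4-ph, 266 in enp1-1, 319 in srm1-ts and 499.6 in dis3-1, and was 937 and 945 CPM in rrp6 deletion libraries, against 696 ± 6.66 CPM in control libraries. Only the rrp6 deletion libraries lay above control among the 5 mutants of that table. Gene by gene, 7 of 11 were higher in rrp6 deletion cells and the other 4 did not pass the test. All 11 were lower in enp1-1 in oligo d(T) RNA. Over all features 30.5% were higher in rrp6 deletion cells, and 38.6% were lower in enp1-1 in oligo d(T) RNA.

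COS12 (chrVII:2790-3932, plus strand), which has only unique windows, had 43.8 and 42.9 CPM in rrp6 deletion libraries, against 5.47 and 3.76 CPM in control libraries (log2 fold change 3.23 ± 0.31 SE, edgeR adjusted p = 1.12e-05). In the same table it fell in enp1-1, with 0.289 and 0.642 CPM, and in srm1-ts, with 0.566 and 0.558 CPM. COS4 (chrVI:6426-7565, 27.7% unique windows) had 60.6 and 54.9 CPM in rrp6 deletion libraries and 3.25 and 1.99 CPM in control. COS8 (chrVIII:6401-7546, 82.6% unique windows) was listed at 0 in both srm1-ts libraries and had 24.0, 15.9 and 18.1 CPM in control libraries in oligo d(T) RNA, at least 188-fold lower against 3 counts per library (adjusted p = 7.18e-05), whereas in ribo-depleted RNA its 2 srm1-ts libraries had 0 and 15.8 CPM, so that estimate did not repeat.

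The PAU genes, which encode small serine-poor cell wall mannoproteins made in the cold and without oxygen, were highest in srm1-ts. The sum over the 18 subtelomeric PAU genes was 90.8 ± 9.67 CPM in csl4-ph, 26.5 ± 1.69 CPM in enp1-1 and 151 ± 1.57 CPM in srm1-ts, against 21.5 ± 1.93 CPM in control libraries (SD, n = 3, 2, 2 and 3) in oligo d(T) RNA. After ribo-depletion it averaged 66.3 CPM in csl4-ph, 24.9 in enp1-1, 94.9 in srm1-ts, 37.9 in dis3-1 and 32.8 in rrp6 deletion, against 25.7 CPM in control. In csl4-ph and in srm1-ts 14 of the 18 were higher and the other 4 did not pass the test. The medians were 2.68 and 4.22. Over all features of oligo d(T) RNA, 38.2% and 39.3% were higher in these strains. PAU16 had 2.27 and 2.41 CPM and PAU19 1.05 and 0.90 CPM in srm1-ts, and at most 0.15 CPM in every other oligo d(T) library. Both passed the filter on low counts through srm1-ts alone, so the srm1-ts count and median are a description. In enp1-1 5 were higher and 1 lower. PAU12 (chrVII:1080306-1080668, 17.5% unique windows) averaged 28.3 CPM in srm1-ts and 9.27 CPM in csl4-ph, against 1.33 CPM in control cells, log2 fold changes of 4.41 ± 0.19 (SE) and 2.80 ± 0.17. No PAU gene passed the filter in 3′ tags.

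Vitamin genes moved by family. The THI5 family sum was 39.3 ± 3.17 CPM in csl4-ph, 10.7 ± 1.43 CPM in enp1-1 and 39.8 ± 1.02 CPM in srm1-ts, against 15.2 ± 1.07 CPM in control libraries in oligo d(T) RNA. SNZ2 and SNZ3, which act in vitamin B6 synthesis and neighbour THI genes, summed to 47.7 CPM in csl4-ph, 24.6 CPM in enp1-1 and 10.3 CPM in srm1-ts, against 23.4 CPM in control cells, so in srm1-ts the 2 families stood on opposite sides of control. In ribo-depleted RNA SNZ2 and SNZ3 summed to 58.9 CPM in csl4-ph, 12.6 CPM in srm1-ts and 12.6 CPM in rrp6 deletion cells, against 42.6 CPM in control. A list for vitamins B1, B6 and biotin held 8 subtelomeric genes. Of these, 6 were higher in csl4-ph in oligo d(T) RNA and the other 2 did not pass the test. In srm1-ts 3 were higher and 4 lower. Over all features 38.2% were higher in csl4-ph, and 39.3% were higher and 37.7% lower in srm1-ts.

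Of 14 genes for uptake and use of sugars, 9 were higher and 1 lower in srm1-ts and 9 were higher in csl4-ph in oligo d(T) RNA, against 4 higher and 3 lower in enp1-1. The shares were 64.3% higher in srm1-ts and in csl4-ph, against 39.3% and 38.2% of all features, and 28.6% in enp1-1, against 37.8%. In rrp6 deletion cells 5 were higher and 6 lower (35.7% and 42.9%; background 30.5% and 35.6%), near the background. HXT15 and HXT16, near-identical hexose transporter genes, summed to 33.03 CPM in csl4-ph, 6.39 CPM in enp1-1 and 8.92 CPM in srm1-ts, against 32.7 CPM in control cells in oligo d(T) RNA. The csl4-ph value lay at the control level while enp1-1 and srm1-ts lay below it. The maltase genes MAL12 and MAL32 summed to 23.7 CPM in srm1-ts, 3.12 CPM in csl4-ph and 0 in enp1-1 in oligo d(T) RNA. The control libraries there averaged 2.80 CPM and ran from 0 to 6.07 CPM. After ribo-depletion the sum averaged 49.19 CPM in csl4-ph, 31.13 in enp1-1, 46.54 in srm1-ts and 22.04 in dis3-1, against 6.32 CPM in control. It averaged 1.05 CPM in rrp6 deletion cells. The higher sum was thus not particular to srm1-ts in that table.

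The 5 subtelomeric AAD genes, which encode putative aryl-alcohol dehydrogenases, were all higher in csl4-ph, enp1-1 and srm1-ts in oligo d(T) RNA. AAD4 (chrIV:17577-18566, minus strand, 78.6% unique windows) had 80.9, 80.05 and 76.8 CPM in csl4-ph, 71.2 and 70.1 CPM in enp1-1 and 58.2 and 59.4 CPM in srm1-ts libraries, against 25.5, 25.3 and 26.2 CPM in control libraries. AAD10 (chrX:727405-728271, plus strand) was highest in enp1-1, with 87.6 and 89.8 CPM, against 21.2, 21.8 and 21.0 CPM in control libraries. In rrp6 deletion cells 1 AAD gene was higher and 2 were lower. Over all features 30.5% were higher and 35.6% lower in rrp6 deletion cells. In oligo d(T) RNA 38.2%, 37.8% and 39.3% of all features were higher in csl4-ph, enp1-1 and srm1-ts. Of 7 tested iron, copper, zinc and arsenic genes, 4 were higher and 1 lower in srm1-ts, 3 and 2 in csl4-ph and 2 and 5 in enp1-1 in oligo d(T) RNA. The higher shares were 57.1%, 42.9% and 28.6%, against 39.3%, 38.2% and 37.8% of all features, and with 7 genes they are read no further.

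**Figure D4:**
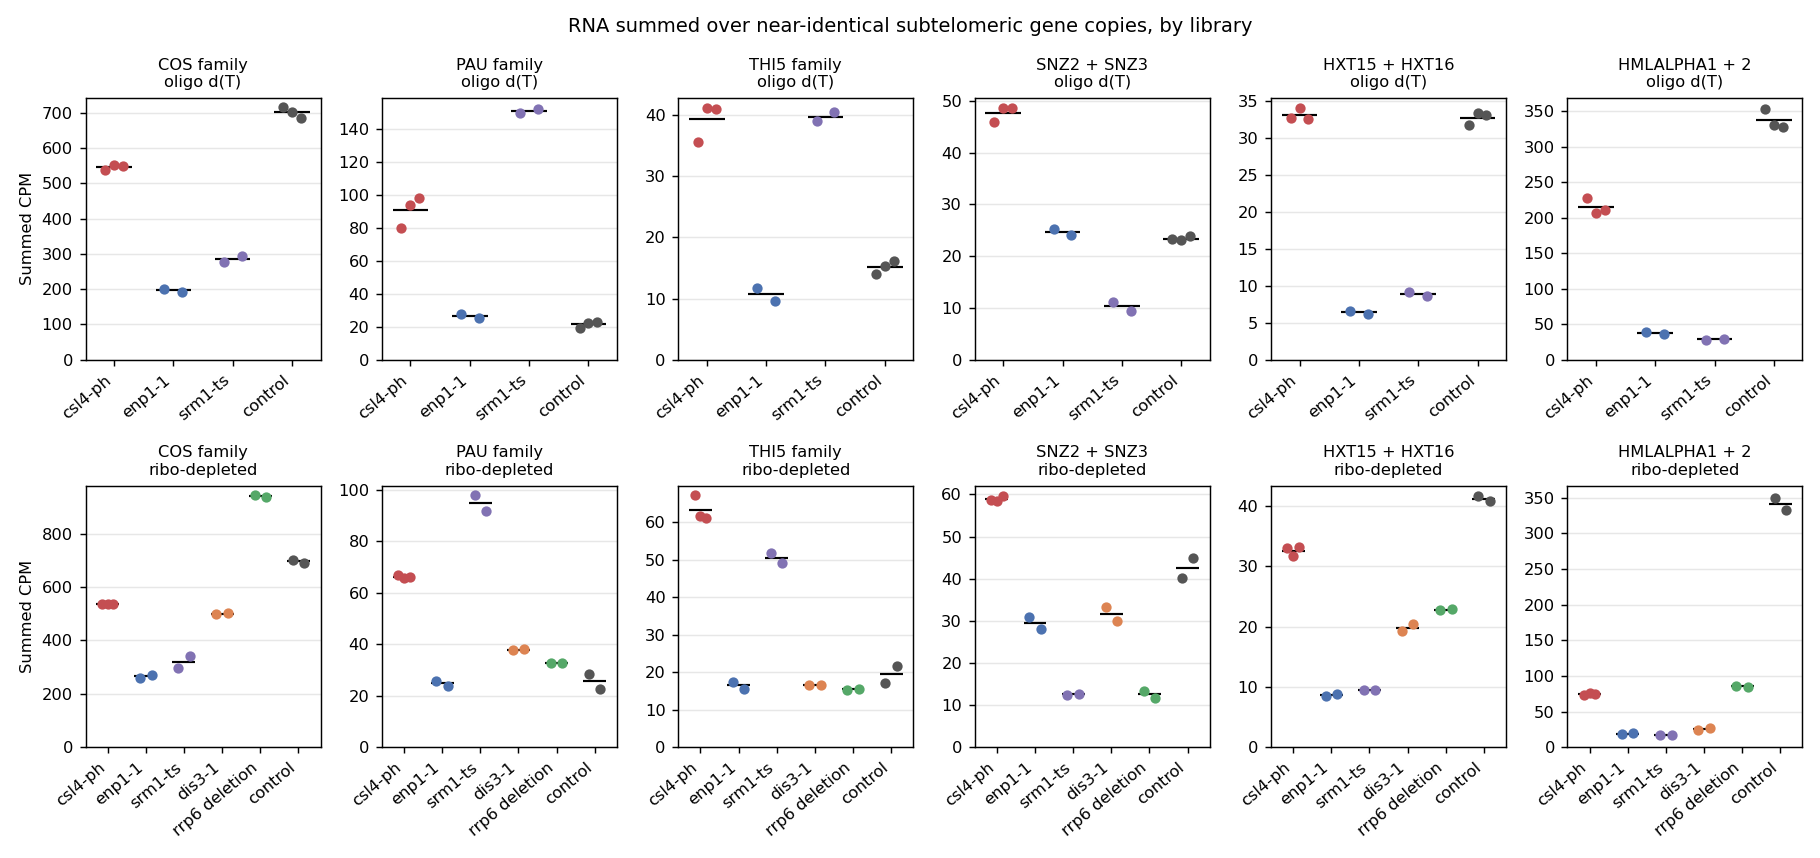
Summed CPM per library of 6 groups of near-identical subtelomeric genes, in oligo d(T) RNA (top) and ribo-depleted RNA (bottom); dots are libraries and bars are group means. COS genes lie above control only in the rrp6 deletion libraries (937 and 945 CPM), PAU genes are highest in srm1-ts, and HMLALPHA1 with HMLALPHA2 is highest in control.

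Unique ORFs allow single genes to be read. Over the 8 comparisons with control in the first 2 tables, which share their control libraries within a table, 110 unique ORFs were tested in all 8. Of these, 10 were higher in all 8 (AYT1, FLO10, FRE2, YAL069W, YBL109W, YFR054C, YHL041W, YMR316C-B, YMR317W and YOL166C). Another 10 were lower in all 8 (ARR1, GTT1, HYR1, IRC4, MNT2, RPN12, SRY1, YER186C, YFR052C-A and YOR385W). Further, 54 were higher in some and lower in others, and 1 never passed the test. In single comparisons 30.0% to 39.4% of all features were higher and 35.6% to 41.1% lower. The matching counts over all 8 were not made for all features, so these counts are a description.

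FLO10 (chrXI:646356-649865, plus strand, 87.2% unique windows), a flocculin gene for cell adhesion, had 75.7, 88.9 and 90.4 CPM in csl4-ph, 91.7 and 95.1 CPM in enp1-1 and 42.3 and 39.9 CPM in srm1-ts libraries, against 9.16, 10.7 and 10.9 CPM in control libraries in oligo d(T) RNA. All mutant libraries lay above control, with log2 fold changes of 3.05 ± 0.09 (SE), 3.19 ± 0.10 and 2.01 ± 0.10 (edgeR adjusted p = 1.37e-08, 1.46e-08 and 2.09e-07). In ribo-depleted RNA FLO10 had 55.1 and 52.1 CPM in dis3-1 and 57.4 and 56.3 CPM in rrp6 deletion libraries, against 19.3 and 20.6 CPM in control libraries. FLO10 overlaps another annotated feature.

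NFT1 (chrXI:653080-656736, plus strand), a putative ABC transporter gene, lies beyond FLO10 on the same arm and rose in csl4-ph and enp1-1. It had 70.0, 68.7 and 66.5 CPM in csl4-ph, 124 and 128 CPM in enp1-1 and 15.3 and 14.01 CPM in srm1-ts libraries, against 9.67, 12.8 and 10.2 CPM in control libraries in oligo d(T) RNA. In enp1-1 the log2 fold change was 3.53 ± 0.10 (adjusted p = 7.68e-09), and in srm1-ts it was 0.43 ± 0.10. In ribo-depleted RNA its srm1-ts libraries, at 23.7 and 23.1 CPM, did not differ from the control libraries, at 22.9 and 22.3 CPM, past the threshold. YKR104W (chrXI:656836-657756, plus strand), the next ORF, had 53.3 and 52.9 CPM in enp1-1 libraries, against 4.10, 5.31 and 4.23 CPM in control libraries in oligo d(T) RNA.

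YHL041W (chrVIII:17392-17841, plus strand), an ORF with no assigned role, had the largest rise among the named unique ORFs. It had 15.6, 17.7 and 17.8 CPM in csl4-ph, 10.9 and 13.3 CPM in enp1-1, 3.79 and 3.28 CPM in srm1-ts, 7.53 and 7.75 CPM in dis3-1 and 4.72 and 4.99 CPM in rrp6 deletion libraries, against 0.0855 and 0.418 CPM in control libraries in ribo-depleted RNA. All 5 mutants lay above control, and the csl4-ph log2 fold change was 6.12 ± 0.41 (adjusted p = 4.45e-07). The control values lie at or near the limit that a count of 0 allows in this table.

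YMR317W (chrXIII:907364-910786, plus strand), an ORF of unknown function, was among the better measured ones. It had 299.8, 287 and 297 CPM in csl4-ph, 325 and 304 CPM in enp1-1, 157 and 151 CPM in srm1-ts, 343 and 342 CPM in dis3-1 and 141 and 142 CPM in rrp6 deletion libraries, against 54.9 and 57.8 CPM in control libraries in ribo-depleted RNA. In 3′ tags it averaged 112 ± 8.13 CPM in csl4-ph and 123 ± 24.8 CPM in enp1-1, against 24.3 ± 6.19 CPM in control cells with the empty vector (SD, n = 3 each). AYT1 (chrXII:14648-16072, minus strand), an acetyltransferase gene higher in all 8 comparisons, is mentioned outside the naming rule. It had 43.8 and 42.3 CPM in srm1-ts, against 10.2, 10.5 and 11.7 CPM in control libraries in oligo d(T) RNA.

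DLD3 (chrV:16355-17845, plus strand), which encodes a cytosolic enzyme of D-lactate and 2-hydroxyglutarate metabolism and is a target of the retrograde response to mitochondrial state, had the largest rise among the named unique ORFs in srm1-ts in oligo d(T) RNA. It had 206, 217 and 219 CPM in csl4-ph, 209.8 and 205 CPM in enp1-1 and 3676 and 3668 CPM in srm1-ts libraries, against 229.6, 236 and 234 CPM in control libraries of that selection. The srm1-ts log2 fold change was 3.98 ± 0.03 (SE, edgeR adjusted p = 2.74e-11), while csl4-ph and enp1-1 lay slightly below control. In ribo-depleted RNA it had 2889 and 2869.9 CPM in srm1-ts, against 431 and 424 CPM in control libraries. The 250 bases before its start (R64 chrV:16105-16354, plus strand) hold the motif GGTCAC on the opposite strand, shown in capitals as its complement and starting 160 bases before the ORF. The retrograde factors Rtg1 and Rtg3 are known to bind this motif. The search covered both strands, and 4.59% of the 6541 ORF windows and 3.41% of the 293 subtelomeric windows of that length hold it, so the match is a description only. In the same search TGCACCC was not found in the window of FRE2 (1.16% of windows and 2.05% of the subtelomeric ones hold it), nor CACGTG in that of PHO89 (2.75% and 2.39%), which says only that these letters are not in those windows.
DLD3: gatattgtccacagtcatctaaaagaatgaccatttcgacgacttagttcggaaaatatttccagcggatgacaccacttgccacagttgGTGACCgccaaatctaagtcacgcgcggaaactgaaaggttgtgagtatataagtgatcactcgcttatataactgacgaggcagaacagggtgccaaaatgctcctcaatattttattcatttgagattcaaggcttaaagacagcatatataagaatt

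Maltose genes with unique sequence rose in srm1-ts too. MAL31 (chrII:802631-804475, minus strand), a maltose permease gene, had 812 and 835 CPM in srm1-ts, against 80.1, 85.9 and 75.9 CPM in control libraries in oligo d(T) RNA (log2 fold change 3.35 ± 0.05, adjusted p = 2.24e-10). In enp1-1 it had 80.6 and 78.4 CPM, inside the control range. MAL11 (chrVII:1073963-1075813, minus strand), another permease gene for maltose and related sugars, had 282 and 284 CPM in srm1-ts and 50.0, 52.5 and 53.2 CPM in control libraries. MAL33 (chrII:800523-801929, plus strand), which encodes the activator of MAL genes, had 86.3, 92.4 and 95.5 CPM in csl4-ph, 19.8 and 21.8 CPM in enp1-1 and 101 and 111 CPM in srm1-ts libraries, against 21.2, 19.5 and 20.9 CPM in control libraries. ERO1 (chrXIII:11483-13174), the thiol oxidase gene of the endoplasmic reticulum, had 547 and 577 CPM in srm1-ts, against 147, 157 and 148 CPM in control libraries. It met the naming rule through a fall in 3′ tags with the empty vector, at 142 ± 40.5 CPM in enp1-1 against 434 ± 67.7 CPM in control. In the 8 comparisons of the first 2 tables ERO1 was higher in 4 and lower in 4.

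FRE2 (chrXI:9091-11226, minus strand), a gene for a cell surface reductase of iron and copper, was highest in enp1-1. In ribo-depleted RNA it had 57.8, 52.1 and 52.6 CPM in csl4-ph, 108 and 104 CPM in enp1-1, 19.4 and 20.9 CPM in srm1-ts, 18.3 and 15.9 CPM in dis3-1 and 11.5 and 11.4 CPM in rrp6 deletion libraries, against 4.36 and 4.81 CPM in control libraries. The enp1-1 log2 fold change was 4.53 ± 0.10 (SE, edgeR adjusted p = 3.83e-10). In oligo d(T) RNA the csl4-ph libraries had 11.1, 13.1 and 17.3 CPM and the control libraries 7.76, 7.97 and 6.42 CPM, a smaller change. AGP3 (chrVI:17004-18680), an amino acid permease gene, had 65.1, 65.2 and 57.9 CPM in csl4-ph and 70.3 and 58.6 CPM in enp1-1, against 9.40 and 9.72 CPM in control libraries in ribo-depleted RNA, while in oligo d(T) RNA it was at 0 in 2 csl4-ph libraries and 1 control library and passed no test.

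Genes that fell in all 8 comparisons included HYR1 (chrIX:423128-423619, plus strand), a thiol peroxidase gene of the oxidative stress response. HYR1 had 90.1, 105 and 109 CPM in csl4-ph, 77.9 and 84.1 CPM in enp1-1 and 17.1 and 16.1 CPM in srm1-ts libraries, against 313, 296 and 326 CPM in control libraries in oligo d(T) RNA. YOR385W (chrXV:1065043-1065915, plus strand), of unknown function, had 14.7 and 17.1 CPM in srm1-ts, against 358, 344 and 363 CPM in control libraries, a log2 fold change of -4.48 ± 0.06 (adjusted p = 1.38e-10). SRY1 (chrXI:17359-18339, minus strand), the 3-hydroxyaspartate ammonia-lyase gene, had 2.82 and 3.05 CPM in enp1-1, against 40.7, 39.01 and 39.2 CPM in control libraries. No mutant library of these 3 genes reached the control range.

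MSC1 (chrXIII:15135-16676, minus strand) separated the strains: it had 32.3, 35.7 and 33.97 CPM in csl4-ph, 48.1 and 42.8 CPM in enp1-1 and 316 and 298 CPM in srm1-ts libraries, against 283, 279.9 and 291 CPM in control libraries in oligo d(T) RNA. Its fall in csl4-ph and enp1-1 passed the test and its srm1-ts value did not. YCR102C (chrIII:304361-305467, minus strand) had 7.46 and 6.28 CPM in rrp6 deletion and 10.5 and 11.1 CPM in dis3-1 libraries, against 61.7 and 59.98 CPM in control libraries in ribo-depleted RNA, log2 fold changes of -3.14 ± 0.10 and -2.49 ± 0.10. YFR052C-A had 6.75 and 7.70 CPM in rrp6 deletion libraries, against 64.9 and 67.7 CPM in control libraries.

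A few genes were listed at 0 in whole groups. ARN2 (chrVIII:8351-10213, minus strand), a siderophore transporter gene, was at 0 in both enp1-1, both dis3-1 and both rrp6 deletion libraries and had 2.00, 11.8 and 10.7 CPM in csl4-ph libraries, against 12.6 and 20.3 CPM in the control libraries of ribo-depleted RNA. The enp1-1, dis3-1 and rrp6 deletion values were at least 175-fold, 80.9-fold and 90.4-fold lower against 3 counts per library. RDS1 (chrIII:310958-313456), a zinc-cluster factor gene, was at 0 in all 3 csl4-ph libraries of oligo d(T) RNA, against 3.22, 5.31 and 4.75 CPM in control, at least 30.98-fold lower, yet had 43.4, 37.9 and 39.9 CPM in csl4-ph ribo-depleted libraries. ARN2 and RDS1 overlap other features, and how the count estimate shared reads with these was not tested.

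**Figure D5:**
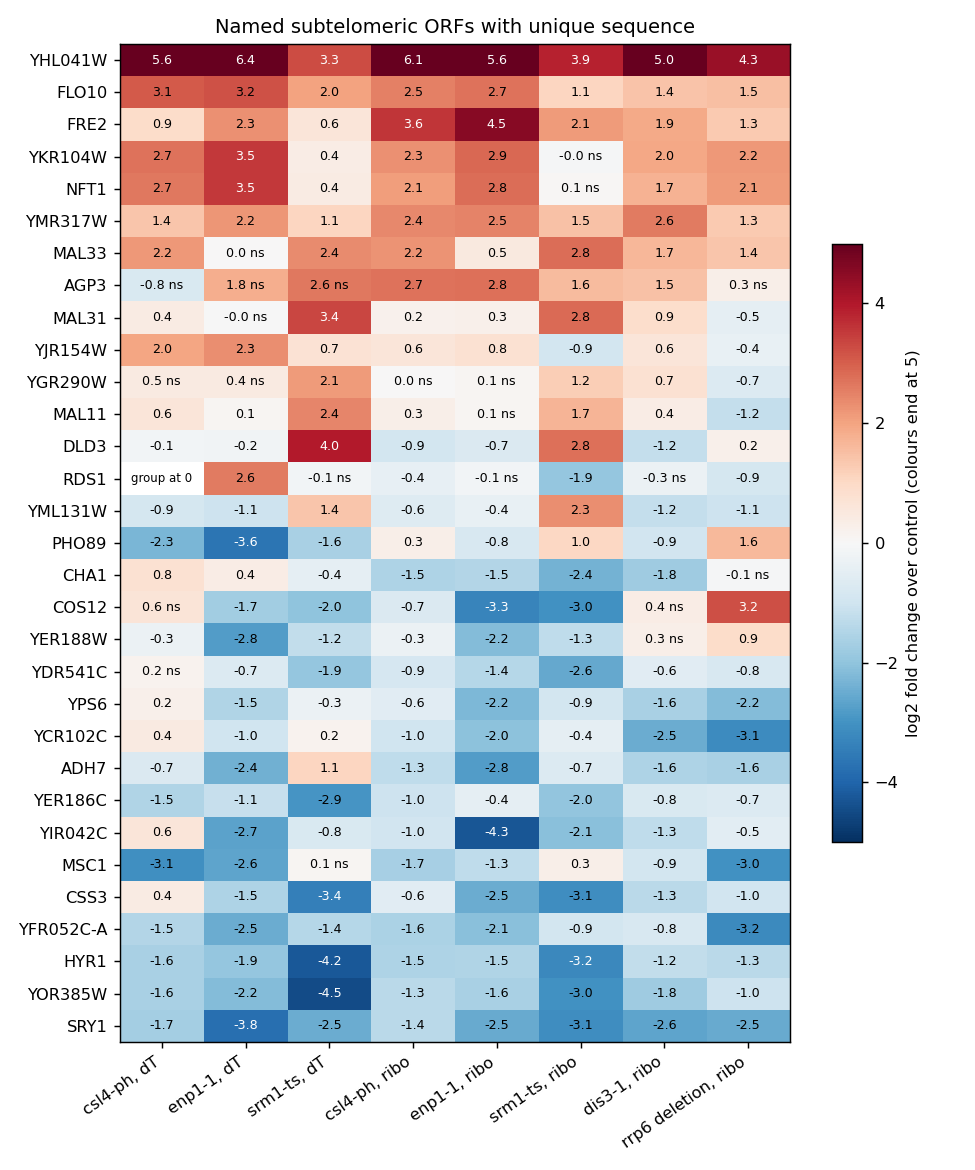
Log2 fold change over control of 31 named subtelomeric ORFs with at least 80% unique windows in 8 comparisons; "ns" marks an adjusted p of at least 0.05, colours end at 5, and cells with a group at 0 counts give no fold. YHL041W and FLO10 are higher in all 8 columns, HYR1, YOR385W and SRY1 are lower in all 8, and DLD3 stands out in srm1-ts at 3.98 in oligo d(T) RNA.

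The silent mating cassette HML holds copies of the alpha genes near the left end of chromosome III. HMLALPHA1 (chrIII:13282-13809) had 46.2, 43.9 and 43.5 CPM in csl4-ph, 0.0847 and 0.134 CPM in enp1-1 and 0.980 and 0.702 CPM in srm1-ts libraries, against 60.9, 62.2 and 57.3 CPM in control libraries in oligo d(T) RNA. Together with HMLALPHA2 (chrIII:12386-13018) it summed to 215 ± 10.7 CPM in csl4-ph, 37.7 CPM in enp1-1 and 28.8 CPM in srm1-ts, against 337 ± 13.4 CPM in control cells. In ribo-depleted RNA the sum averaged 74.7 CPM in csl4-ph, 19.4 in enp1-1, 17.3 in srm1-ts, 25.5 in dis3-1 and 85.4 in rrp6 deletion, against 342 ± 12.4 CPM in control cells. Both genes were lower in all 8 comparisons. An active MAT alpha locus has the same sequence, neither gene has a unique window, and the alpha-cell markers were highest in control too, so HML and MAT cannot be told apart here. Of 19 tested genes for telomere silencing factors, none of which is subtelomeric by the rule, 3 were higher and 13 lower in csl4-ph, 4 and 9 in enp1-1 and 6 and 10 in srm1-ts in oligo d(T) RNA. These shares (15.8% and 68.4%, 21.1% and 47.4%, and 31.6% and 52.6%) stood near those of the ORFs farther from the ends (25.4% and 56.8%, 28.6% and 53.6%, and 38.2% and 46.3%).

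The effect of a mutation was higher in oligo d(T) than in ribo-depleted RNA for a share of these ORFs near that of all features, and lower for a smaller share than over all features. Of 271 subtelomeric ORFs tested in both tables together, the csl4-ph effect was higher in oligo d(T) RNA for 71 and lower for 46 (26.2% and 17.0%; background 27.7% and 27.1%, farther ORFs 33.2% and 31.1%), the enp1-1 effect for 63 and 47 (23.2% and 17.3%; background 22.8% and 30.2%, farther ORFs 23.2% and 39.6%) and the srm1-ts effect for 65 and 45 (24.0% and 16.6%; background 22.5% and 27.7%, farther ORFs 29.8% and 31.5%). Of the ORFs higher in csl4-ph, 106 were higher in both tables, 73.1% of those in oligo d(T) RNA and 79.7% of those in ribo-depleted RNA, and over all features the shares were 68.9% and 73.6%. In csl4-ph 19 of 246 ORFs tested in both tables were called in opposite directions (7.72%, against 7.36% of all features), in enp1-1 8 (3.25%, against 6.27%) and in srm1-ts 16 (6.5%, against 6.08%).

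CHA1 (chrIII:15798-16880, minus strand), a gene for breakdown of serine and threonine, changed direction between the tables in csl4-ph and enp1-1. In srm1-ts it lay below control in both. It had 235, 238 and 237 CPM in csl4-ph, 177 and 178 CPM in enp1-1 and 102 and 104 CPM in srm1-ts, against 139, 143 and 136 CPM in control libraries in oligo d(T) RNA. After ribo-depletion it had 172, 168 and 168 CPM in csl4-ph, 176 and 174 CPM in enp1-1, 93.2 and 96.5 CPM in srm1-ts, 146 and 139 CPM in dis3-1 and 467 and 458 CPM in rrp6 deletion, against 477 and 497 CPM in control libraries. The tables were scaled separately, and the control levels lay farther apart between them than the mutant levels.

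PHO89 (chrII:796798-798522, minus strand), a sodium and phosphate cotransporter gene, changed direction in csl4-ph and srm1-ts and lay below control in both tables in enp1-1. In oligo d(T) RNA it had 29.03, 30.3 and 28.6 CPM in csl4-ph, 10.9 and 11.9 CPM in enp1-1 and 47.7 and 45.95 CPM in srm1-ts. The control libraries there had 137, 151 and 139.8 CPM. After ribo-depletion it had 32.7, 33.2 and 33.6 CPM in csl4-ph, 16.0 and 14.7 CPM in enp1-1, 54.7 and 55.2 CPM in srm1-ts and 85.8 and 81.8 CPM in rrp6 deletion, against 27.6 and 26.5 CPM in control libraries. The mutant levels were close in both tables while the control levels were not. Both sets of libraries are labelled control, and whether they came from the same cultures is not stated.

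The Pab1GFP vector went with lower Y′ RNA in enp1-1 cells. The Y′ sum in 3′ tags was 2512 ± 458 CPM with the Pab1GFP vector and 5481 ± 552 CPM with the empty vector in enp1-1 cells, 5223 ± 1260 and 3877 ± 75.9 CPM in csl4-ph cells, and 1125 ± 38.9 and 1137 ± 50.8 CPM in control cells (SD, n = 3 each). The enp1-1 groups did not overlap, nor did the csl4-ph groups, where the sum was 4013 to 6527 CPM with the Pab1GFP vector and 3797 to 3949 CPM with the empty vector, the opposite direction. In enp1-1, 14 of 85 subtelomeric ORFs were lower with Pab1GFP and 1 was higher (16.5% and 1.18%; background 4.95% and 1.71%, farther ORFs 2.88% and 1.95%), and 13 of the 14 lay in Y′ regions. The other fall was YMR317W, at 61.3 ± 15.1 CPM with Pab1GFP and 123 ± 24.8 CPM with the empty vector (log2 fold change -0.99, adjusted p = 0.0124), and the rise was IRC4, at 41.8 ± 4.86 and 21.7 ± 7.23 CPM (0.93, adjusted p = 0.0218). Without enp1-1 + Pab1GFP vector replicate 1 the lower share became 10.8%, without replicate 3 of that group 8.6%, and the higher share became 0 without replicate 1 or 2 of that group or replicate 2 or 3 of enp1-1 + empty vector.

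In control and csl4-ph cells the edgeR test called 0 subtelomeric ORFs for Pab1GFP (background 0.220% higher and 0.173% lower in control, 0.236% and 0.173% in csl4-ph; farther ORFs 0.0929% and 0.217% in control, 0.248% and 0.155% in csl4-ph). At an unadjusted p under 0.05, 5 were higher and 5 lower in control and 12 higher and 3 lower in csl4-ph, and DESeq2 called 1.18% lower in control and 3.53% higher in csl4-ph. The Pab1GFP effect in enp1-1 minus that in control was lower for 3 of the 85 ORFs (background 0.754%, farther ORFs 0.248%), all in Y′ regions and with at most 20.01% unique windows: YEL077C, with a difference of -1.98 ± 0.34 on the log2 scale (SE, edgeR adjusted p = 0.0127), YHL050C with -1.24 ± 0.19 (0.00523) and YML133C with -1.46 ± 0.30 (0.0290). For csl4-ph minus control edgeR called 0, with 6 higher and 3 lower at an unadjusted p under 0.05 (background 0.00% higher and 0.0314% lower).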

How the data were processed

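RNA was measured in 41 libraries of 3 tables. The deposited values are estimated counts per feature, made by the authors with Salmon 0.12.0 after Trimmomatic 0.39 (3′ tags 0.38) against sacCer3 (R64), per the submitters' processing notes; bedtools, DESeq and DESeq2 1.26.0 are named too. Per the labels, stranded Kapa libraries were read in pairs of 50 bases, and 3′ tags are QuantSeq single reads. One label of csl4-ph ribo-depleted replicate 1 describes poly(A) RNA, and its title and table say ribo-depleted, where it was kept.

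Estimated counts were rounded and tested with edgeR 4.0.16 (R 4.3.3; limma 3.58.1) quasi-likelihood F-tests, 2-sided, TMM scaling, edgeR's low-count filter, all groups of a table in 1 fit, interactions between tables or strain and vector, and Benjamini-Hochberg adjustment over all features. CPM divide counts by TMM-adjusted library sizes. DESeq2 1.42.0, other scalings, no filter, groups alone, left-out libraries, a replicate block, other distances and unique ORFs were alternatives. The test was checked on simulated data. Libraries did not share columns, and 0 pairs were identical.

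ORFs were matched to R64 by position, 231 of 294 with a RefSeq entry. ORFs named individually were those with at least 80% unique windows, non-overlapping groups and a mean of at least 10 CPM (5 in 3′ tags), up to 5 rises and 5 falls a comparison, besides HML genes, nearest and edge ORFs, and list members with the smallest p; others are marked. Members and lists were chosen with earlier results of these data known. Intervals and limits cover counting error only.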

Additional observations from a re-analysis of the deposited data

Results flagged for a closer look

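The effects of the mutations differed between oligo d(T) and ribo-depleted RNA by the interaction test in edgeR. Of 271 subtelomeric ORFs, the effect in oligo d(T) RNA was higher for 71 and lower for 46 in csl4-ph, higher for 63 and lower for 47 in enp1-1, and higher for 65 and lower for 45 in srm1-ts. Over all features 27.7% and 27.1%, 22.8% and 30.2%, and 22.5% and 27.7% were higher and lower, so the higher shares of subtelomeric ORFs (26.2%, 23.2% and 24.0%) lay near the background and the lower ones (17.0%, 17.3% and 16.6%) below it. Among the ORFs named in the text, the difference (log2, oligo d(T) minus ribo-depleted) was 2.28 in csl4-ph, 1.81 in enp1-1 and 1.87 in srm1-ts for CHA1. It was -2.59, -2.85 and -2.68 for PHO89 in the same order of strains. FRE2 differed by -2.68 in csl4-ph and -2.25 in enp1-1. YCR102C differed by 1.40 in csl4-ph, YJR154W by 1.56 in enp1-1 and 1.58 in srm1-ts, and DIA1 by -1.65 in srm1-ts. Each of these comparisons uses the same control libraries within a table, so 1 difference between the control groups of the tables enters all of them.

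The Pab1GFP effect differed between enp1-1 and control cells for 3 of 85 subtelomeric ORFs, each lower in enp1-1 (3.53%, against 0.754% of all features).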

How the results depend on the processing

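Percentages are of tested subtelomeric ORFs called, and no called fold change of a single named ORF turned its sign. The balance of higher and lower calls did turn: with unique ORFs alone lower calls outnumbered higher ones in enp1-1 in oligo d(T) RNA, in all 5 mutants after ribo-depletion and in csl4-ph and enp1-1 tags, where the full set leans higher. Of the percentages, 451 values under alternatives stayed within 1.5 times the main value and 61 did not. With unique ORFs alone, the lower share became 33% in csl4-ph and 43.8% in enp1-1 in oligo d(T) RNA. After ribo-depletion the higher and lower shares became 33.3% and 38.3% in csl4-ph, 23.3% and 42.5% in dis3-1 and 30.0% and 40% in rrp6 deletion, and the lower share 43.3% in enp1-1. In 3′ tags they became 7.89% and 28.9% in csl4-ph and the same in enp1-1, 2.63% each way for Pab1GFP in enp1-1, and 26.6% lower for the enp1-1 effect in oligo d(T) minus ribo-depleted RNA. Within 10000 bases, the lower share became 6.87% in csl4-ph oligo d(T), 12.4% in csl4-ph, 13.1% in dis3-1 and 11.7% in rrp6 deletion ribo-depleted RNA, the shares in tags 61.9% and 7.14% in csl4-ph and 59.5% and 9.52% in enp1-1, those for Pab1GFP in enp1-1 0 and 31%, and the lower share of the oligo d(T) minus ribo-depleted effect 11.2% in enp1-1 and 9.09% in srm1-ts. Within 30000 bases the Pab1GFP higher share was 0.633%.

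Scaling on ORFs gave 12.2% lower in csl4-ph and 16.7% in dis3-1 ribo-depleted RNA and 7.06% in csl4-ph tags, where median-ratio scaling gave 10.6%. With no filter the tag shares became 15.4% and 6.48% in csl4-ph, 13.8% and 5.67% in enp1-1 and 0.405% and 4.86% for Pab1GFP in enp1-1. Outside Y′ regions, an alternative chosen after seeing the data, they were 16.4% and 25.5%, 12.7% and 27.3%, and 1.82% each way. DESeq2 gave 1.18% lower for Pab1GFP in control and 3.53% higher in csl4-ph, and groups fitted alone gave 2.04% lower in control and 0 and 9.23% in enp1-1. Leaving out 1 library gave 6.45% to 17.2% lower in csl4-ph tags, 0 to 1.11% for each direction of Pab1GFP in csl4-ph, and 0 to 1.08% higher and 8.6% to 17.2% lower for Pab1GFP in enp1-1. Of single named ORFs, 1201 values kept their call and 17 lost it, all in 3′ tags (ARR1, COX14, YIR042C, IRC4 and YMR317W). The cause of these changes was not tested, apart from the ORFs that a subset leaves out.

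Deviations of same-numbered libraries from their group means had correlations up to 0.229 in size over the tested features. This cannot exclude a shared culture or batch, and the labels do not say what a shared number means. In groups of 2 libraries the deviations also mirror each other. A replicate block moved no percentage by over 1.5 times (csl4-ph in oligo d(T) RNA 56.6% higher and 17.1% lower). Depth limits the 3′ tags most: 85 of the 294 ORFs could be tested there.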
